A study of Mus musculus with 2 samples.

Results

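The genes described here are 10 noncoding host genes of small nucleolar RNAs (snoRNAs), namely Snhg1, Snhg3, Snhg5, Snhg6, Snhg8, Snhg12, Snhg15, Snhg17, Gas5 and Zfas1, out of 47719 gene identifiers in the table. They were chosen by symbol, with their values in both libraries already known, so those values are given as a description and without a test. All 10 were expressed, meaning that at least 1 library reached 1 CPM (count per 1000000 reads), as did 12326 genes in all.

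RNA was sequenced from tail keratinocytes of mice on the C57BL/6J background, aged 8 weeks, after 3 days of culture. The K5.Pp6fl/fl library came from cells of the genotype of that name, titled cKO. The Pp6fl/fl library came from cells with the floxed alleles alone, which both genotypes carry. Pp6 (Ppp6c in the table) encodes the catalytic subunit of the serine/threonine phosphatase PP6, and K5 is the usual short name of keratin 5, whose promoter is active in basal keratinocytes. The labels do not spell out the recombinase, the number of mice or the share of cells in which the alleles recombined. There was 1 library per genotype, so the differences below cannot be set against a spread between replicates, and the 95% intervals cover counting error only.

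A snoRNA is a short nucleolar RNA that guides the modification of ribosomal and spliceosomal RNA. Box C/D snoRNAs guide methylation of the ribose and box H/ACA snoRNAs guide conversion of uridine to pseudouridine. In mammals most snoRNAs are cut out of introns, so a host gene yields snoRNAs from its introns and a spliced, polyadenylated RNA from its exons. Many noncoding hosts begin transcription at a run of pyrimidines, as the genes of ribosomal proteins do, and the spliced RNAs of several, with Gas5 the best known, are bound by ribosomes and removed by nonsense-mediated decay. Gas5 was named for its accumulation in growth-arrested cells, and its spliced RNA can bind the glucocorticoid receptor. Zfas1 was described in mouse mammary epithelium.

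The libraries were made from RNA captured by its poly(A) tail, so the values are those of the polyadenylated host RNA and not of the snoRNAs. GENCODE M21 places 36 snoRNA models inside the 10 genes, from 1 each in Snhg6, Snhg8 and Snhg15 to 8 in Snhg1 and 10 in Gas5. Some of these models overlap one another. Their lengths ran from 60 to 205 bases with a median of 82. The rows of these 36 snoRNAs together held 1 read in the K5.Pp6fl/fl library, in Snora73a, and 2 reads in the Pp6fl/fl library, in Snora73b. All 1558 snoRNA and small Cajal body RNA genes of the table held 4 and 5 reads in the K5.Pp6fl/fl and Pp6fl/fl libraries. No level of a mature snoRNA is described here.

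The snoRNA models were searched for the C box (TGATGA within the first 25 bases) with the D box (CTGA within the last 20), and otherwise for ACA at 3 bases from the end. Both C and D boxes were found in 21 models and the ACA in 7, while 8 had neither the C and D pair nor the ACA at these places. A snoRNA from each of 5 hosts is shown to let the guide classes be seen, with the boxes in capitals; the letters are those of GENCODE M21 transcripts, read 5′ to 3′.
Snord47 in Gas5: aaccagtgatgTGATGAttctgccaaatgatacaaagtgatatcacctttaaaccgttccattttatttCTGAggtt
Snord12 in Zfas1: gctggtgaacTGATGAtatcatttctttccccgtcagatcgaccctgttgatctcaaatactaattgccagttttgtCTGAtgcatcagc
Snord50a in Snhg5: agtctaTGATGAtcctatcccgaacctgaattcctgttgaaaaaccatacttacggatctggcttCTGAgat
Snord87 in Snhg6: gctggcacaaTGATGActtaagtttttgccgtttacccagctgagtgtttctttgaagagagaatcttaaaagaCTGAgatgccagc
Snora24 in Snhg8: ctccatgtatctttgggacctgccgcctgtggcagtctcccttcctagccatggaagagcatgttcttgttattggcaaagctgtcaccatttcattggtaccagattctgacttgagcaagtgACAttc
By these letters Gas5, Zfas1, Snhg1, Snhg5 and Snhg6 carried box C/D models. Snhg3, Snhg8 and Snhg15 carried H/ACA models, and Snhg12 carried both kinds. The 3 models in Snhg17 end in ACA itself, not 3 bases beyond it, so the search did not class them.

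The start sites of the host genes were examined in RefSeq promoter sequences of GRCm38.p6, which held 11 starts of 9 of the genes and none of Snhg6. Windows of 50 bases before and 50 after the start are shown for 6 genes, the first 4 because they hold a TATA motif and the last 2 because their RNAs had the lowest ratios between the libraries. Capitals mark the TATA motif and any run of at least 5 pyrimidines that opens with C within 20 bases of the start, 5′ to 3′ on the strand of the gene. The coordinates are those of the RefSeq build and not of the build named in the submitters' notes.
Gas5, inner start, chr1:161035116-161035215, plus strand: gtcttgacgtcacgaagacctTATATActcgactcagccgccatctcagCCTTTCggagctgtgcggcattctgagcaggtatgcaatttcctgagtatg
Snhg8, chr3:123508287-123508386, minus strand: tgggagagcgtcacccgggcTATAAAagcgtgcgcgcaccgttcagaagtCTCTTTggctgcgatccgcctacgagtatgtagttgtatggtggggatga
Snhg12, chr4:132308628-132308727, plus strand: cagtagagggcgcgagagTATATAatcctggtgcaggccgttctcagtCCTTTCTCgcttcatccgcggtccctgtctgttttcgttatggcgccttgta
Snhg5, chr9:88522848-88522947, minus strand: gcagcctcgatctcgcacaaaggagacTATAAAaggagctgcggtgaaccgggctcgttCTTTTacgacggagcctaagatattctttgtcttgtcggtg
Snhg1, chr19:8723437-8723536, plus strand: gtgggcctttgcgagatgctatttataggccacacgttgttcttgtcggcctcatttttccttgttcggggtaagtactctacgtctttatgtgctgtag
Zfas1, chr2:167062884-167062983, plus strand: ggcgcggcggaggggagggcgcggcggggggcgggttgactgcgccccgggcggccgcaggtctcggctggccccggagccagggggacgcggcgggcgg
The TATA motif (TATAAA or TATATA on the strand of the gene, 40 to 15 bases before the start) was found at 4 of the 11 starts (36.4%), against 2.73% of all 32851 starts in the RefSeq table. A C followed by 4 pyrimidines from the first base was found at 2 starts (18.2%), the inner of the 2 Gas5 starts and that of Snhg8, against 2.51% of all starts. A run of at least 5 pyrimidines that opened with C lay within 20 bases of 6 starts (54.5%), against 45.9% of all. Within 20 bases of their starts Snhg1, Zfas1 and Snhg15 had no such run, and no TATA motif lay 40 to 15 bases before them. Just after its start the Snhg1 window holds the pyrimidine stretch tttttcctt, which opens with T and so was not counted. Among the 22 protein-coding hosts of the ribosome and translation list in the RefSeq table, 59.1% had the run, 9.09% had it from the first base and 4.55% had the TATA motif. The motif TGACGTCA, the cyclic AMP response element, was searched in the 300 bases around each start on either strand. It was present at the inner start of Gas5 and at that of Snhg15 (18.2% of the starts, against 1.79% of all). The E-box CACGTG, searched in the same 300 bases on either strand, was present at 1 start, that of Snhg15 (9.09%, against 7.15% of all). A match describes these letters only.

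Estimated reads in genes came to 17361236 in the K5.Pp6fl/fl library and 19374787 in the Pp6fl/fl library. Ppp6c itself had 707 reads in the K5.Pp6fl/fl library and 1074 in the Pp6fl/fl library, a ratio of 0.733 (0.666 to 0.807). By deposited FPKM (fragments per kilobase, scaled to depth) the Ppp6c ratio was lower, at 0.548, and the authors' log2 fold change was -0.86. All 8 keratinocyte markers were expressed, with summed levels of 54482 and 57964 CPM in K5.Pp6fl/fl and Pp6fl/fl. None of the 6 fibroblast, 6 immune and 4 endothelial markers was expressed, and 6 of these 16 stood at 0 reads in both libraries (Lum, Cd74, Ptprc, Cd3e, Cd207 and Lyz2). Melanocyte markers were expressed for 4 of 5, and their summed level was 14.96 CPM in K5.Pp6fl/fl cells and 7.34 CPM in Pp6fl/fl cells; their part in the differences below was not tested. In such bulk cultures fewer cells that make an RNA and less of that RNA per cell cannot be told apart.

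As a group the host RNAs were lower in the K5.Pp6fl/fl library. They summed to 4726 reads there, which is 0.0272% of all reads (exact binomial interval 0.0265% to 0.0280%), and to 6472 reads in the Pp6fl/fl library, which is 0.0334% (0.0326% to 0.0342%). Divided by the summed CPM of Pp6fl/fl, the summed CPM of K5.Pp6fl/fl gave a ratio of 0.813 (0.783 to 0.844). Gas5 alone gave 37.9% of the host reads in the K5.Pp6fl/fl library and 38.4% in the Pp6fl/fl library, and without it the ratio was 0.820 (0.781 to 0.860). Without Snhg6, the host with the highest ratio, it was 0.795 (0.765 to 0.827). The median log2 ratio of the 10 genes, with 0.5 CPM added to both values, was -0.22, where that of all 12326 expressed genes was -0.01.

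**Figure D1:**
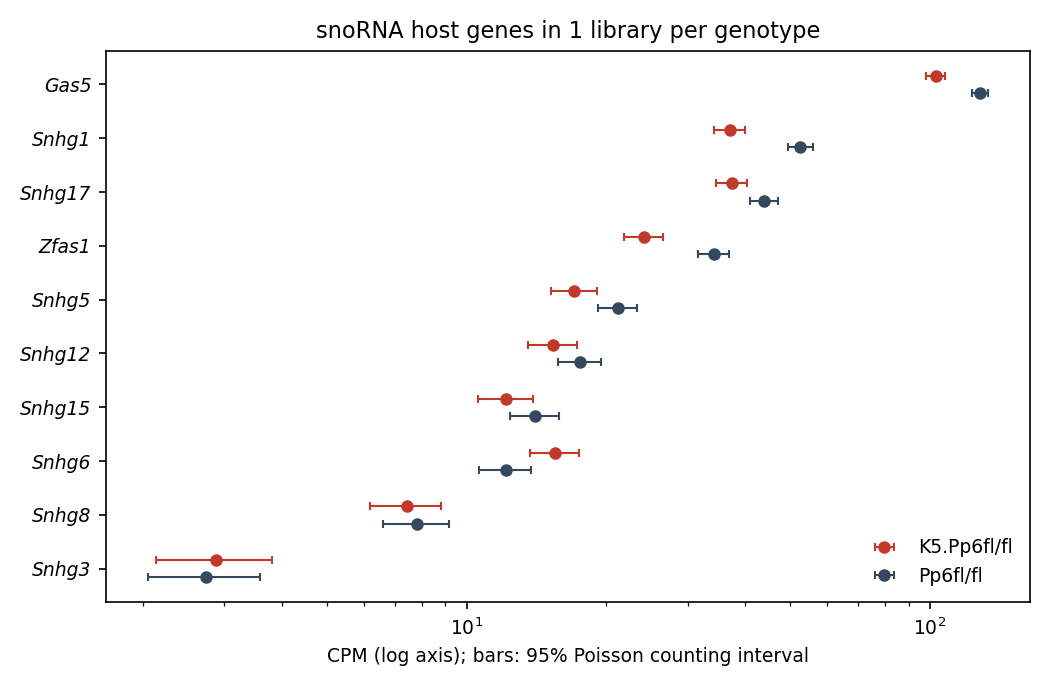
Level of each host RNA in CPM (x axis, log scale) in the K5.Pp6fl/fl library (red, upper point of each pair) and the Pp6fl/fl library (dark blue, lower point), with bars for the 95% Poisson counting interval. The red point lies to the left for 8 of the 10 genes and to the right for Snhg6 and Snhg3.

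Among the hosts of box C/D snoRNAs, Gas5, the most abundant, had 1789 reads in the K5.Pp6fl/fl library, with a Poisson interval (exact) of 1707 to 1874, and 2483 in the Pp6fl/fl library (2386 to 2583). These are 103 CPM in K5.Pp6fl/fl and 128 CPM in Pp6fl/fl, a ratio of 0.802 (0.754 to 0.853). The K5.Pp6fl/fl level of Gas5 was thus the lower, and the counting intervals of the libraries did not overlap. The gene has 25 annotated transcripts, 20 of them with a retained intron, and it overlaps Zbtb37 on the opposite strand, although no exons of the pair overlap.

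Snhg1, the host of Snord22, had 643 reads in the K5.Pp6fl/fl library (594 to 695) and 1017 in the Pp6fl/fl library (955 to 1081), which are 37.0 and 52.6 CPM. Its ratio of 0.704 (0.637 to 0.778) was the lowest of the 10 genes. Of all expressed genes, 2.09% had a lower log2 ratio than Snhg1, whose own was -0.50.

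Zfas1 lay beside Snhg1 in its ratio. It had 420 reads in the K5.Pp6fl/fl library (381 to 462) and 662 in the Pp6fl/fl library (613 to 714), or 24.2 and 34.2 CPM, with a ratio of 0.706 (0.624 to 0.799). Zfas1 is transcribed from the promoter region of Znfx1, on the opposite strand, and exons of the pair overlap. Since the library kit did not mark the strand, their reads cannot be told apart where they overlap. Znfx1 had 731 reads in the K5.Pp6fl/fl library and 797 in the Pp6fl/fl library, a ratio of 1.02 (0.922 to 1.13), and the pair summed had a ratio of 0.878 (0.812 to 0.949). Annotated Zfas1 transcripts also share a stretch of 114 to 201 bases, at 95% identity or more, with transcripts of 62 other genes, so how its reads were divided among these genes is uncertain.

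Snhg5, the host of the Snord50 pair, had 297 reads in the K5.Pp6fl/fl library (264 to 333) and 410 in the Pp6fl/fl library (371 to 452), or 17.1 and 21.2 CPM. The ratio was 0.806 (0.692 to 0.939), close to that of Gas5, on far fewer reads. A stretch of 233 bases in Snhg5 was at least 95% identical to transcripts of 9330159M07Rik, which held 14 reads in the K5.Pp6fl/fl library and 15 in the Pp6fl/fl library, and of 9430037G07Rik, which held 4 and 2.

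Snhg6, the host of Snord87, went the other way. It had 270 reads in the K5.Pp6fl/fl library (239 to 304) and 235 in the Pp6fl/fl library (206 to 267), or 15.5 and 12.1 CPM. The ratio of 1.28 (1.07 to 1.53) was the only one of the 10 with an interval above 1, while the Poisson intervals of the separate counts overlapped. Of all expressed genes, 90.7% had a lower log2 ratio than Snhg6. Mcmdc2, which overlaps Snhg6 on the opposite strand, held 0 reads in the K5.Pp6fl/fl library and 1 in the Pp6fl/fl library.

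Of the hosts of box H/ACA snoRNAs, Snhg12, which carries both classes, had 267 reads in the K5.Pp6fl/fl library (236 to 301) and 340 in the Pp6fl/fl library (305 to 378), or 15.4 and 17.6 CPM. Its ratio was 0.874 (0.742 to 1.03). Snhg15, the host of Snora9, had 211 reads (183 to 241) in K5.Pp6fl/fl and 272 (241 to 306) in Pp6fl/fl, or 12.1 and 14.1 CPM, with a ratio of 0.864 (0.718 to 1.04). Both stood below 1 with an interval that included it.

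Snhg8, the host of Snora24, had 129 reads in the K5.Pp6fl/fl library (108 to 153) and 151 in the Pp6fl/fl library (128 to 177), or 7.42 and 7.80 CPM. Its ratio was 0.951 (0.746 to 1.21), and the intervals of both counts overlapped. Snhg3, the host of the Snora73 pair, was the least abundant, with 50 reads in the K5.Pp6fl/fl library (37.1 to 65.9) and 53 in the Pp6fl/fl library (39.7 to 69.3). At 2.88 CPM in K5.Pp6fl/fl and 2.74 CPM in Pp6fl/fl its ratio was 1.05 (0.699 to 1.58), an interval too wide to show a difference of the size seen for Gas5 or Snhg1. Snhg3 also shares exons with Rcc1, a protein-coding gene on the same strand, which had 2397 reads in the K5.Pp6fl/fl library and 2655 in the Pp6fl/fl library (ratio 1.01, 0.951 to 1.06). Exons of the noncoding gene Gm17300, on the opposite strand, overlap those of Snhg3 too. Gm17300 had 44 reads in the K5.Pp6fl/fl library and 43 in the Pp6fl/fl library, close to the counts of Snhg3. Without strand marks, reads of Snhg3 and Gm17300 cannot be told apart where the genes overlap.

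Snhg17, whose human counterpart carries box H/ACA snoRNAs, had 650 reads in the K5.Pp6fl/fl library (601 to 702) and 849 in the Pp6fl/fl library (793 to 908), or 37.4 and 43.9 CPM. The ratio was 0.852 (0.768 to 0.945). It lay below 1 with its interval, though short of the 1.2-fold mark.

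Read as counts, 0 of the 10 genes were 2-fold or 1.5-fold apart in either direction. A gene passed a fold when its log2 ratio reached that size, its interval excluded 1 and it was expressed; the 2-fold rule took 0.811% of all expressed genes as higher and 0.195% as lower, and the 1.5-fold rule 3.47% and 1.26%. At 1.2-fold, 4 were lower (Snhg1, Zfas1, Gas5 and Snhg5), where 6.13% of all expressed genes were, and 1 was higher (Snhg6), where 9.07% were. On the interval alone 5 lay below 1, the same 4 and Snhg17, where 17.4% of all expressed genes did, and 1 lay above 1, where 16.6% did. The log2 ratio was below 0 for 8 of the 10, as it was for 53.1% of all expressed genes. Snhg5, with a log2 ratio of -0.30, stood just inside the 1.2-fold mark and Snhg17, with -0.23, just outside it. These counts use the same contrast by which the genes were known when chosen, so nothing is read from them.

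**Figure D2:**
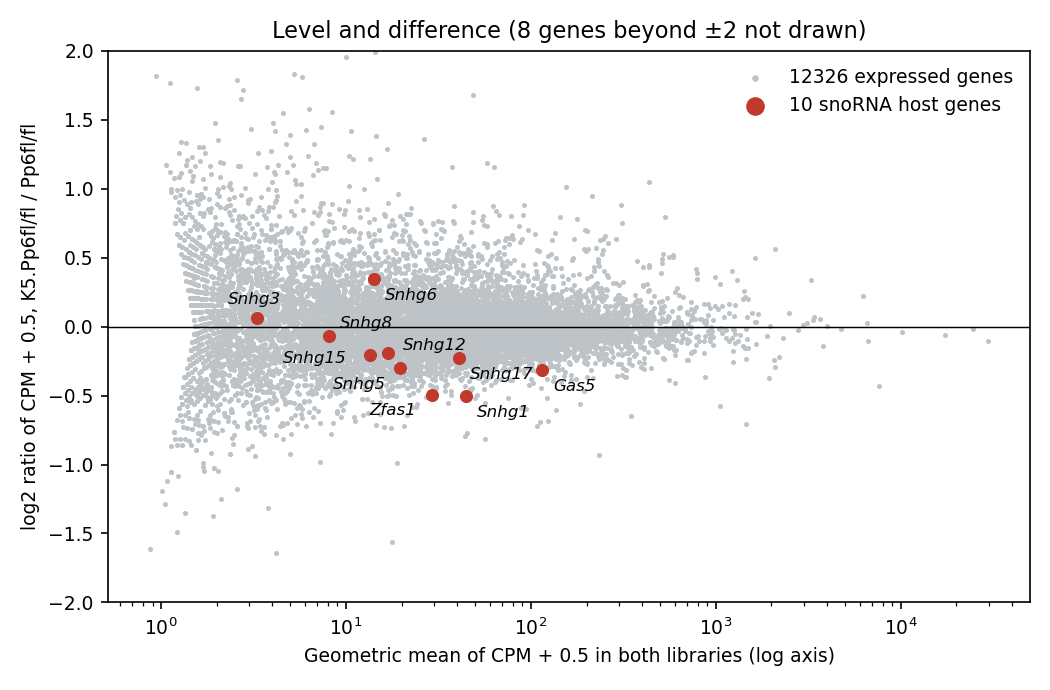
Log2 of the K5.Pp6fl/fl to Pp6fl/fl ratio, with 0.5 CPM added to both (y axis), against the geometric mean level in both libraries (x axis, log scale), for 12326 expressed genes (grey) and the 10 host genes (red); 8 genes beyond ±2 are not drawn. Snhg1 and Zfas1 have the lowest log2 ratios of the host genes, -0.50 and -0.49, and Snhg6 the highest, 0.34.

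The authors' deposited table also holds fold changes with an FDR, made from the same pair of libraries with a dispersion that the labels do not state. Since there was 1 library per genotype, these FDR values rest on that dispersion. The 10 genes were also chosen with these counts known, so the FDR values are given as deposited and not read as a test. In the authors' deposited table, 3 of the 10 genes had an FDR under 0.05, all lower in K5.Pp6fl/fl, where 5.5% of the expressed genes were so and 8.86% were higher. In the authors' deposited table these were Snhg1 with a log2 fold change of -0.55 (FDR 3.33e-07), Zfas1 with -0.53 (FDR 3.45e-05) and Gas5 with -0.40 (FDR 4.95e-05). The authors' deposited table had Snhg6 at 0.49 on the log2 scale (FDR 0.0643) and Snhg5 at -0.32 (FDR 0.0727). The authors' deposited table had Snhg17 at -0.19 on that scale (FDR 0.0805). For Snhg15, Snhg8 and Snhg3 the authors' deposited table had FDR values of 0.412, 0.91 and 0.965.

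Levels of the genes can be set against each other only per length, as FPKM (fragments per kilobase, scaled to depth), here the values deposited by the authors with bounds from the counting interval. Gas5 stood highest, at 358 FPKM in the K5.Pp6fl/fl library (342 to 375) and 471 FPKM in the Pp6fl/fl library (453 to 490.3). Snhg1 was next, at 105 FPKM (97.1 to 114) in K5.Pp6fl/fl and 154 FPKM (145 to 164) in Pp6fl/fl. Snhg3 was the lowest in both, at 20.98 FPKM (15.6 to 27.7) in K5.Pp6fl/fl and 20.6 FPKM (15.4 to 26.9) in Pp6fl/fl.

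Between these ends the order differed between the libraries. In the K5.Pp6fl/fl library the third place was held by Snhg6, at 92.0 FPKM (81.3 to 104), whose bounds overlapped those of Snhg1. Zfas1 (51.2 FPKM), Snhg12 (50.7), Snhg15 (43.6) and Snhg8 (41.4) followed with overlapping bounds, and then Snhg17 (29.0) and Snhg5 (28.9), which could not be told from each other. The bounds of Snhg5 (25.7 to 32.4) and of Snhg17 (26.8 to 31.3) overlapped those of Snhg3 as well. In the Pp6fl/fl library the third place was held by Snhg12, at 86.2 FPKM (77.3 to 95.8), followed by Zfas1 at 74.1 FPKM (68.6 to 80.01) and Snhg6 at 65.5 FPKM (57.4 to 74.5), each overlapping the next. Snhg15 (49.2 FPKM), Snhg8 (41.7), Snhg5 (36.2) and Snhg17 (33.1) followed, each again overlapping its neighbour. The bounds were clear of the gene ranked below for Gas5 and Snhg6 in both libraries, for Snhg8 in the K5.Pp6fl/fl library, and for Snhg1 and Snhg17 in the Pp6fl/fl library.

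Snhg12 was the gene whose difference depended most on the unit. Its FPKM ratio was 0.588, against a count ratio of 0.874, and the authors' deposited table had it at -0.77 on the log2 scale (FDR 0.385). FPKM divides by an effective length that can differ between libraries with the share of each transcript, and the length implied by the 2 values was 1.49 times as great in K5.Pp6fl/fl as in Pp6fl/fl. Among 10669 genes with over 50 reads in both libraries the middle 95% of this length ratio ran from 0.829 to 1.24, and 133 genes (1.25%) lay as far from 1 as Snhg12. The 10 annotated transcripts of Snhg12 run from 422 to 1538 bases, and the table has no values per transcript. For Snhg6 the FPKM ratio was 1.40 and the implied length ratio 0.915. For Gas5 the FPKM ratio was 0.760 and the implied length ratio 1.06.

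**Figure D3:**
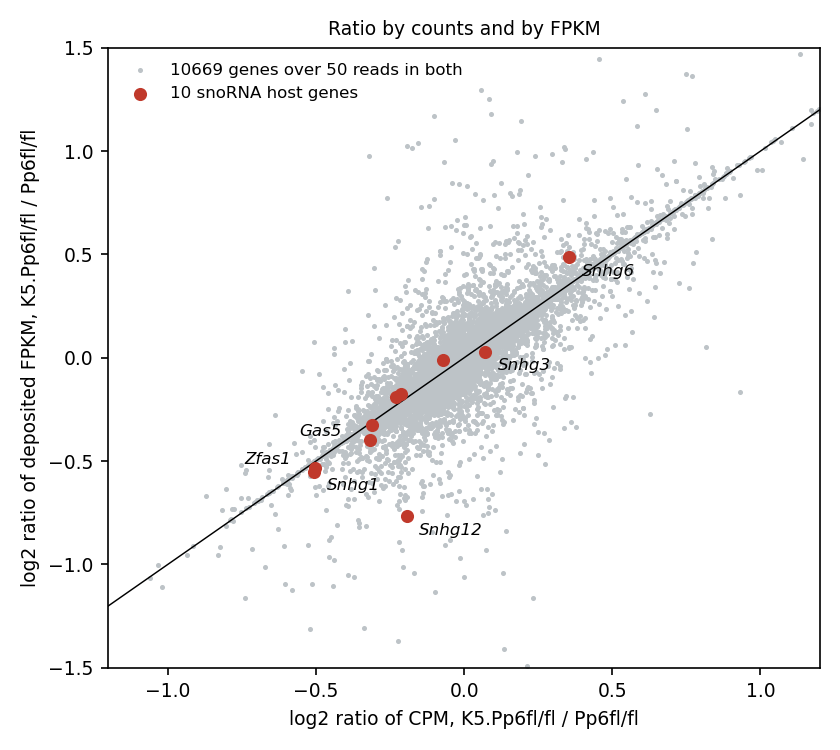
Log2 ratio of deposited FPKM (y axis) against that of CPM (x axis), each K5.Pp6fl/fl over Pp6fl/fl, for 10669 genes with over 50 reads in both libraries (grey) and the 10 host genes (red), with the line of equal ratios. Snhg12 lies below the line, with an FPKM ratio of 0.588 against a count ratio of 0.874, and the other host genes lie near it.

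Other noncoding host genes gave unequal values. Of 11 such genes listed, 8 were in the table and 5 were expressed. Epb41l4aos, which carries 1 annotated snoRNA, had 208 reads in the K5.Pp6fl/fl library and 390 in the Pp6fl/fl library, or 12.0 and 20.2 CPM, and its ratio of 0.594 (0.499 to 0.704) was the only one of the 5 past the 1.5-fold rule. Snhg20 had a ratio of 0.859 (0.668 to 1.10), Snhg16 0.963 (0.771 to 1.202), Snhg14 0.990 (0.839 to 1.17) and Dancr 1.03 (0.606 to 1.79), all with intervals that included 1. The median log2 ratio of the 5 was -0.05. By FPKM, Dancr fell under the floor of 1 FPKM (0.805 in K5.Pp6fl/fl and 0.780 in Pp6fl/fl). The median of the others was then -0.26, which is not over the same genes as -0.05. By FPKM the median of the 10 host genes was -0.25.

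A wider search took every annotated noncoding gene with a snoRNA model inside it on the same strand. This gave 54 genes, of which 20 were expressed, the 10 genes described here among them. The other 10 had a median log2 ratio of -0.08, with 5 intervals below 1 (50%) and 0 above. Of all expressed genes, 17.4% had an interval below 1 and 16.6% above. At 1.2-fold, 3 of these 10 were lower, where 6.13% of all expressed genes were. They were Epb41l4aos and 2 genes named by clone, chosen for naming after their values were seen. 2410006H16Rik had 1085 reads in the K5.Pp6fl/fl library and 1731 in the Pp6fl/fl library, or 62.4 and 89.5 CPM, a ratio of 0.698 (0.646 to 0.753). 1110038B12Rik had 611 reads in the K5.Pp6fl/fl library and 837 in the Pp6fl/fl library, a ratio of 0.813 (0.731 to 0.903). The ratio of 2410006H16Rik was thus as low as that of Snhg1, at a higher level in reads. Among these 10, the other intervals below 1 were close to it, on many reads. They were those of AI506816, at 0.928 (0.894 to 0.963) on 5163 reads in K5.Pp6fl/fl and 6192 in Pp6fl/fl, and of Cct6a. Cct6a stood at 0.967 (0.940 to 0.995) on 8766 and 10092 reads. It is typed as noncoding in this annotation although it encodes a chaperonin subunit.

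**Figure D4:**
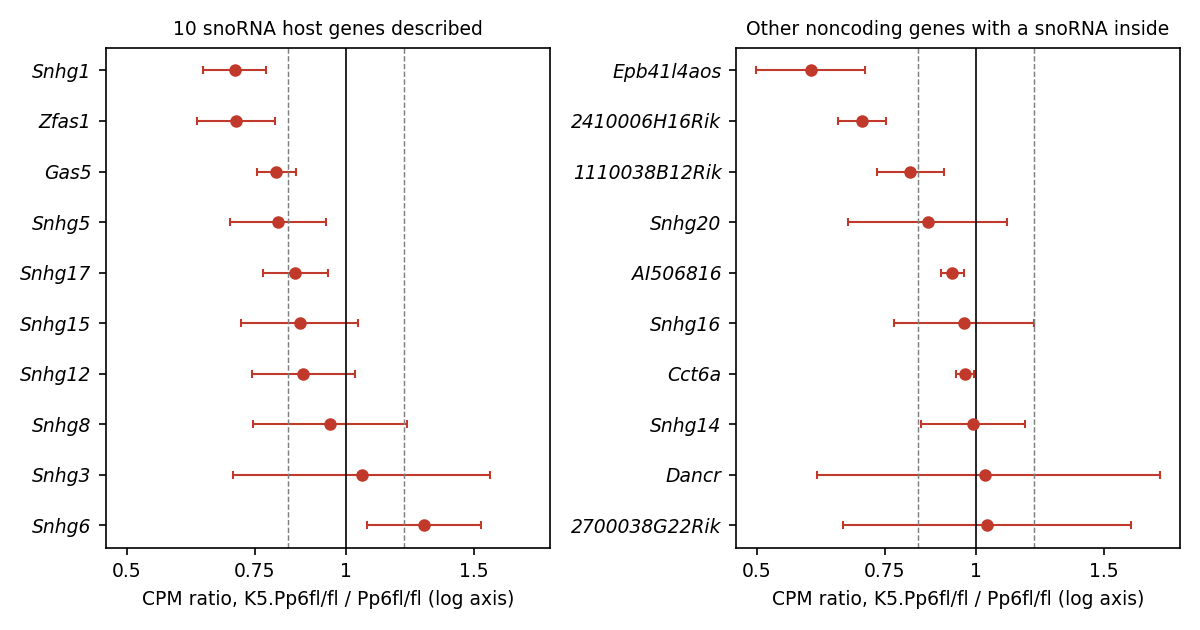
CPM ratio, K5.Pp6fl/fl over Pp6fl/fl (x axis, log scale), with 95% counting intervals, for the 10 host genes (left) and the 10 other expressed noncoding genes with a snoRNA inside (right); dashed lines mark 1.2-fold and the solid line a ratio of 1. Intervals lie wholly below 1 for 5 genes on each side and above 1 for Snhg6 alone.

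Protein-coding hosts of snoRNAs were described by lists. Of all expressed genes, 17.4% had an interval below 1 and 16.6% above. At 1.2-fold 6.13% of all expressed genes were lower and 9.07% higher, and at 1.5-fold 1.26% and 3.47%. In the list of 31 hosts with roles in the ribosome and translation, 0 passed 1.2-fold in either direction. Here 8 intervals lay below 1 (25.8%) and 10 above (32.3%), and the median log2 ratio was 0.00. Highest in CPM, a value not corrected for length, were the elongation factor gene Eef2, with a ratio of 1.02 (1.01 to 1.03), and the ribosomal protein gene Rpl4, with 0.958 (0.941 to 0.975). In the list of 21 other coding hosts, 0 passed 1.2-fold, 8 intervals lay below 1 (38.1%) and 2 above (9.52%). The median log2 ratio of this list was -0.05. Highest in CPM summed over both libraries were Ncl, which encodes nucleolin, with a ratio of 1.07 (1.05 to 1.09), and the mitochondrial chaperone gene Hspa9 with 0.964 (0.944 to 0.985). Over all 216 expressed protein-coding genes with an annotated snoRNA inside, 45 intervals lay below 1 (20.8%) and 51 above (23.6%). Their median log2 ratio was -0.01. Of these 216, 16 were higher (7.41%) and 4 lower (1.85%) at 1.2-fold, and 3 were higher and 1 lower at 1.5-fold. Their log2 ratios ran from -0.69 to 1.79, and those of the 10 host genes from -0.50 to 0.34. A range widens with the number of genes, so these ranges are not compared.

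The genes whose proteins bind and assemble snoRNAs were, as a list, slightly lower in K5.Pp6fl/fl. All 20 were expressed, and 17 had a log2 ratio below 0 (85%), where 53.1% of all expressed genes did. Of their intervals, 6 lay below 1 (30%) and 0 above, against 17.4% and 16.6% of all expressed genes. The median log2 ratio was -0.06, against -0.01 over all expressed genes. Highest in CPM were the box C/D core genes Nop56, at 0.95005 (0.919 to 0.982), and Nop58, at 0.956 (0.922 to 0.990), each itself a snoRNA host. Coil, the gene of the Cajal body protein coilin, was the 1 gene of the list past 1.2-fold, at 0.811 (0.684 to 0.960). This is 5% of the list as lower, where 6.13% of all expressed genes were lower. Coil was named after its value was seen.

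Nonsense-mediated decay, which removes the spliced RNAs of several host genes, was described by its factors and by other reported targets. Of 21 factor genes, 8 intervals lay below 1 (38.1%) and 1 above (4.76%), against 17.4% and 16.6% of all expressed genes. At 1.2-fold 0 passed, where 6.13% of all expressed genes were lower and 9.07% higher, and the median log2 ratio was -0.04. Highest in CPM were the kinase gene Smg1, at 0.934 (0.901 to 0.968), and the release factor gene Etf1, at 1.02 (0.982 to 1.05). Of 17 other reported targets, 9 intervals lay above 1 (52.9%) and 1 below (5.88%). At 1.2-fold 1 gene passed as higher (5.88%), and the median log2 ratio was 0.09. That gene was Slc7a11, the cystine transporter, at 1.25 (1.09 to 1.44), named after its value was seen. Highest in CPM were the stress transcription factor gene Atf4, at 0.998 (0.973 to 1.02), and the cell cycle inhibitor gene Cdkn1a, at 1.14 (1.10 to 1.18). By FPKM the median of these targets was 0.02. Counts per gene do not separate the transcripts that decay removes, and any part of decay in the host values was not tested.

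**Figure D5:**
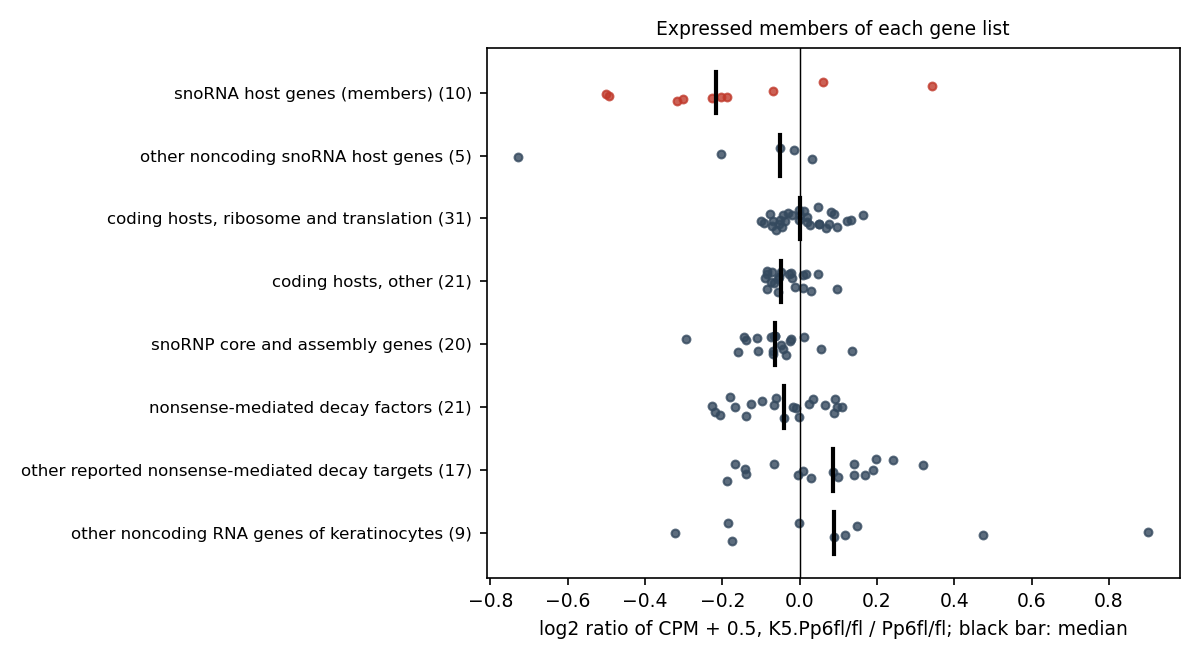
Log2 of the K5.Pp6fl/fl to Pp6fl/fl ratio, with 0.5 CPM added to both (x axis), of every expressed gene in each list, with the number expressed in parentheses and a black bar at the median; vertical scatter has no meaning. The 10 host genes have a median of -0.22, the lists of coding hosts medians of 0.00 and -0.05, and the other reported decay targets 0.09.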

How the data were processed

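Per gene, 1 table gave an estimated count and the FPKM of 1 K5.Pp6fl/fl and 1 Pp6fl/fl library. The submitters' processing notes name RSEM, edgeR and mm8, with no versions or roles. For the aligner and annotation release the sources used here give nothing. The kit, per the labels' protocols, used oligo(dT) beads and marks no strand. Each library's estimated counts, as deposited, carry 1 constant factor: divided by 1 step per column (1.06 for K5.Pp6fl/fl and 0.946 for Pp6fl/fl), 97.4% and 97.3% of their values under 100 reads were whole within 0.01, and these reads were used, which the design had not foreseen. The FPKM values of the authors divide by an effective gene length. The log2 fold changes, p-values and FDR were deposited by the authors.

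Symbols were matched by Ensembl ID to GENCODE M21 (47219 of 47719 IDs). CPM was computed on TMM library sizes (edgeR 4.0.16, R 4.3.3). Ratios, K5.Pp6fl/fl over Pp6fl/fl, have exact conditional binomial (Clopper-Pearson) intervals at 95%, and log2 ratios add 0.5 CPM, which draws low genes towards 0. The interval method was tested only on simulated Poisson counts, which hold no spread between libraries. Without molecular identifiers, reads are not independent molecules. Besides the 10 genes and Ppp6c, a list's genes were named where past 1.5-fold (up to 4), or otherwise the 2 highest in CPM over both libraries. The genes and lists were chosen with earlier results of these data known.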

Additional observations from a re-analysis of the deposited data

How the results depend on the processing

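No paired analysis was possible because each genotype had 1 library, and for the same reason none could be left out. Under DESeq2 1.42.0 size factors, total reads, other pseudocounts, other floors, FPKM and counts summed with overlapping genes, the log2 ratio of each of the 10 host genes was recomputed, 79 values in all. None changed sign, and 77 stayed within the counting interval. The exceptions were Snhg12 by FPKM (-0.75, against -0.19) and Zfas1 summed with the overlapping Znfx1 (-0.19, against -0.49). By FPKM the count of host genes at least 1.5-fold lower was 1, Snhg12, against 0. Without the 11 genes highest in reads in either library the host genes took 0.0309% of the K5.Pp6fl/fl reads and 0.0381% of the Pp6fl/fl reads, a ratio of 0.810. As TPM, or scaled to the median ratio, the FPKM gave the host genes a median log2 ratio of -0.25, against -0.26 as deposited. With a floor of 5 CPM Snhg3 was left out. The median of the other noncoding hosts was -0.13 with that floor and -0.26 by FPKM, against -0.05. Both of these alternatives left out Dancr, so they are not over the same genes. By FPKM the median of the other reported decay targets was 0.02, against 0.09. That of the other noncoding RNA genes was 0.01, against 0.09, but over a changed set of genes. With a floor of 1 FPKM, H19 and Kcnq1ot1 left this set, and Rmrp and Rpph1, not expressed by CPM, entered it. Tests by edgeR that assume a coefficient of variation were also run and are not read here, since the genes were chosen with these counts known. Depth limits Snhg3 and Snhg8 most.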

Other observations

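Noncoding RNA genes known for other roles were described in the same way. Of 14 listed for keratinocytes, 13 were in the table and 9 were expressed, with a median log2 ratio of 0.09. Of the 9, 4 had an interval above 1 (44.4%) and 1 below (11.1%), against 16.6% and 17.4% of all expressed genes. Neat1, the scaffold RNA of paraspeckles, had 7718 reads in the K5.Pp6fl/fl library and 6183 in the Pp6fl/fl library, a ratio of 1.39 (1.34 to 1.44), and Malat1, an RNA of nuclear speckles, had a ratio of 1.11 (1.08 to 1.14). The 1 interval below 1 was that of Xist, with 4432 reads in the K5.Pp6fl/fl library and 5576 in the Pp6fl/fl library, a ratio of 0.885 (0.850 to 0.921). Neat1, Malat1 and Xist were named after their values were seen. The imprinted H19 was the only one past 1.5-fold, with 26 reads in the K5.Pp6fl/fl library and 11 in the Pp6fl/fl library, a ratio of 2.63 (1.26 to 5.90).

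The annotated long noncoding genes other than the 10, of which 420 were expressed, had a median log2 ratio of -0.07. Intervals lay below 1 for 49 of them (11.7%) and above 1 for 28 (6.67%), against 17.4% and 16.6% of all expressed genes. At 1.2-fold, 10% were lower and 5.95% higher, against 6.13% and 9.07% of all expressed genes.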
